A study of Arabidopsis thaliana with 15 samples.

Results

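Roots of Arabidopsis thaliana seedlings fixed on board an aircraft after parabola 3 were compared with roots fixed in level flight before the first parabola. All 4 arrays labelled Parabola 3 and all 4 labelled Level Flight entered the comparison, 8 of the 15 arrays in the series. It covered every row of the expression table that was annotated to exactly 1 gene, which gave 16548 genes after the row with the highest mean was kept for each. The other arrays, 4 from parabola 1 and 3 from parabola 10, shared the fit and were used to ask where parabola 3 stood apart.

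The parabola 3 and the level flight seedlings shared the genotype pCaMV35S:14-3-3κ:GFP, the Wassilewskija cultivar, an age of 10 days and growth under continuous light, and so did the parabola 1 and parabola 10 seedlings. The transgene joins 14-3-3κ, a regulatory protein that binds phosphorylated partners, to a green fluorescent reporter. It is driven by the pCaMV35S promoter, which is active in most plant tissues, and no array of plants without it was used here. Seedlings had been moved into fixation tubes on the morning before the flight, and the tubes released RNAlater when actuated. The pools of 1 group came from 1 tube. The p-values below therefore measure the spread among root pools of 1 tube, and the number of parabolas, the tube and the time on board cannot be told apart.

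A parabola takes plants through a phase of near weightlessness that lies between phases of raised gravity. Roots sense gravity through dense starch grains that settle in the cap, and calcium signals, reactive oxygen species and the hormone auxin act downstream of that settling. The same early genes, among them calmodulin-like calcium sensors and stress transcription factors, are also known to respond within minutes to touch, wounding and other mechanical stimuli.

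Array medians over the tested genes lay between 3.66 and 3.68 after parabola 3 and between 3.67 and 3.70 in level flight, on the log2 scale. On the first principal component, with 33.2% of the variance, the parabola 3 arrays lay at 7.74 to 13.2 and the level flight arrays at −30.7 to −25.5. Parabola 3 replicate 1 stood apart on the second component, which held 11.0% of the variance, at 2.17 against −10.6 to −9.75 for the other 3 arrays of its group. Its median over rows without a gene was 3.98, against 3.78 to 3.81 on those other 3 arrays. Without this array 1918 genes were called, 1557 of them among the 1850 called with it. None of the 3 measured reference genes passed the test in limma, and 0 had an unadjusted p under 0.05, namely GAPC2 (−0.11), PEX4 (−0.05) and AT4G34270 (0.08, log2 fold changes).

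Of the 16548 genes tested, 1850 (11.2%) differed after parabola 3 at an adjusted p under 0.05 in limma, with 742 higher (4.48%) and 1108 lower (6.7%). The falls were larger as well as more frequent, since 235 genes fell at least 2-fold and 76 rose at least 2-fold. A change of at least 4-fold was seen in 25 genes that fell and 8 that rose. Most changes were modest. The median size was 0.54 on the log2 scale among genes that rose and 0.63 among those that fell, with a median standard error of 0.13. The median over all tested genes was 0.03. The 4 parabola 3 arrays did not overlap with the 4 level flight arrays in 2611 genes, or 15.8% of those tested. In bulk roots, fewer cells of a type and less RNA per cell cannot be told apart.

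The share of genes called differed with the array signal, when the genes were split by their mean into 4 bins of 4137. In the dimmest bin 1.33% were called, in the next 8.07%, then 16.8%, and in the brightest bin 18.5%. Falls outnumbered rises in the upper 3 bins, with 181 against 153, 446 against 248 and 468 against 299 genes. In the dimmest bin 42 genes rose and 13 fell, and none changed by 2-fold.

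**Figure D1:**
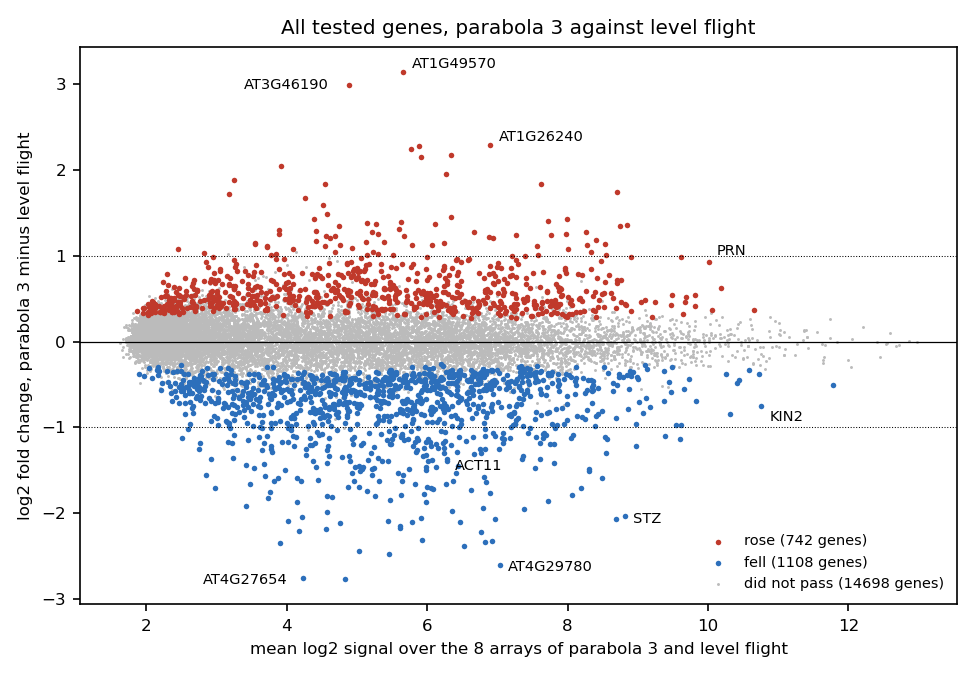
Log2 fold change (parabola 3 minus level flight, y axis) against the mean log2 signal over the 8 arrays (x axis) for each of 16548 genes. Red points are the 742 genes that rose, blue points the 1108 that fell and grey points those that did not pass, and the dotted lines mark 2-fold changes, which more blue than red points exceed.

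Genes of the largest change or highest signal were picked among called genes without overlap of arrays. Separation of the groups was thus a condition of their choice. The largest rise was in AT1G49570, which encodes a class III peroxidase, a secreted heme enzyme that uses hydrogen peroxide to cross-link or loosen cell walls. Its log2 signal was 7.31, 7.37, 7.17 and 7.07 after parabola 3, against 4.09, 4.20, 4.13 and 3.95 in level flight. All parabola 3 arrays lay far above all level flight arrays. The change was 8.81-fold, with a log2 fold change of 3.14 ± 0.16 (SE from the fit of all 15 arrays, n = 4 and 4) and an adjusted p of 3.18e-09. A related gene, AT5G19890, gave 7.32, 7.01, 6.77 and 6.48 after parabola 3, against 4.86, 4.62, 4.33 and 4.80 in level flight. It rose 4.74-fold (2.24 ± 0.17 SE, adjusted p = 1.15e-07), again with no overlap between the groups.

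AT3G46190 had the next largest rise. It measured 6.73, 6.25, 6.06 and 6.46 after parabola 3, against 3.28, 3.53, 3.29 and 3.43 in level flight, a 7.96-fold rise (2.99 ± 0.18 SE, adjusted p = 2.47e-08). No parabola 3 array came near the level flight range. AT1G26240, the gene of a proline-rich extensin-like wall protein, had values of 8.61, 7.73, 7.88 and 7.96 after parabola 3, against 5.15, 5.78, 5.93 and 6.15 in level flight. Replicate 1 was the highest parabola 3 array here. The rise was 4.91-fold (2.30 ± 0.30 SE, adjusted p = 4.52e-05), with a wider error than the rises described before it.

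Transcripts of the basic helix-loop-helix transcription factor gene AT2G43140 stood at 7.30, 6.83, 7.01 and 6.97 after parabola 3, against 4.51, 4.67, 4.95 and 4.83 in level flight. The groups were well apart, and the rise was 4.88-fold (2.29 ± 0.15 SE, adjusted p = 6.01e-08). AT5G48430, an aspartyl protease gene, rose 4.53-fold (2.18 ± 0.29 SE), and replicate 1 (8.24) exceeded the remaining parabola 3 arrays (6.95 to 7.31). AT5G40590, which encodes a cysteine- and histidine-rich C1 domain protein, rose 3.88-fold (1.95 ± 0.15 SE). The remaining genes among the 12 largest rises were AT5G41280 (2.15), AT3G62460 (2.05), AT2G30660 (1.89), the subtilisin-like protease gene AT4G10530 (1.84) and AT5G41290 (1.84, log2 fold changes). Parabola 3 replicate 1 was the highest array of its group in 9 of these 12 genes. Their calls did not change when it was left out.

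The largest falls were in AT4G27657 and its neighbour AT4G27654. AT4G27657 measured 2.95, 3.02, 4.54 and 3.27 after parabola 3, against 6.06, 6.11, 6.38 and 6.27 in level flight. Replicate 3 lay above the other parabola 3 arrays but still well below every level flight array. The fall was 6.79-fold (−2.76 ± 0.28 SE, adjusted p = 3.34e-06). AT4G27654 gave 2.51, 2.61, 3.39 and 2.91 after parabola 3, against 5.44, 5.60, 5.74 and 5.66 in level flight, 6.74-fold lower (−2.75 ± 0.21 SE, adjusted p = 1.65e-07). Here too the groups did not overlap and replicate 3 was the least reduced.

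AT4G29780, which encodes a protein related to transposon nucleases, measured 5.39, 5.48, 6.58 and 5.48 after parabola 3, against 8.25, 8.29, 8.37 and 8.41 in level flight. Replicate 3 again lay above its group. The gene fell 6.05-fold (−2.60 ± 0.20 SE, adjusted p = 1.61e-07). AT4G25433, a gene for a protein with a LysM domain, a module known to bind chitin-like sugars, fell 5.54-fold (−2.47 ± 0.27 SE). AT2G36690, encoding an oxygenase that depends on 2-oxoglutarate and iron, fell 5.43-fold (−2.44 ± 0.20 SE). The multicopper oxidase-like gene sks15, a relative of the root-growth gene SKU5, fell 5.22-fold (−2.38 ± 0.30 SE), at 4.71 to 5.99 after parabola 3 against 7.41 to 8.19 in level flight.

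The other 6 of the 12 largest falls were AT2G29452 (−2.35), AT4G04745 (−2.33), AT5G62210 (−2.33), AT1G05575 (−2.31), ZCF37 (−2.21) and AT1G78410 (−2.21, log2 fold changes). AT1G78410 encodes a VQ motif protein, a class of small partners of WRKY transcription factors. AT1G05575 measured 4.20, 4.40, 5.65 and 4.83 after parabola 3, against 7.18, 6.77, 7.11 and 7.26 in level flight. Parabola 3 replicate 3 was the highest array of its group in 8 of these 12 genes. Across all 1108 genes that fell, it was the array nearest to level flight in 30.1%, replicate 1 in 30.7%, replicate 4 in 21.8% and replicate 2 in 17.4%.

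**Figure D2:**
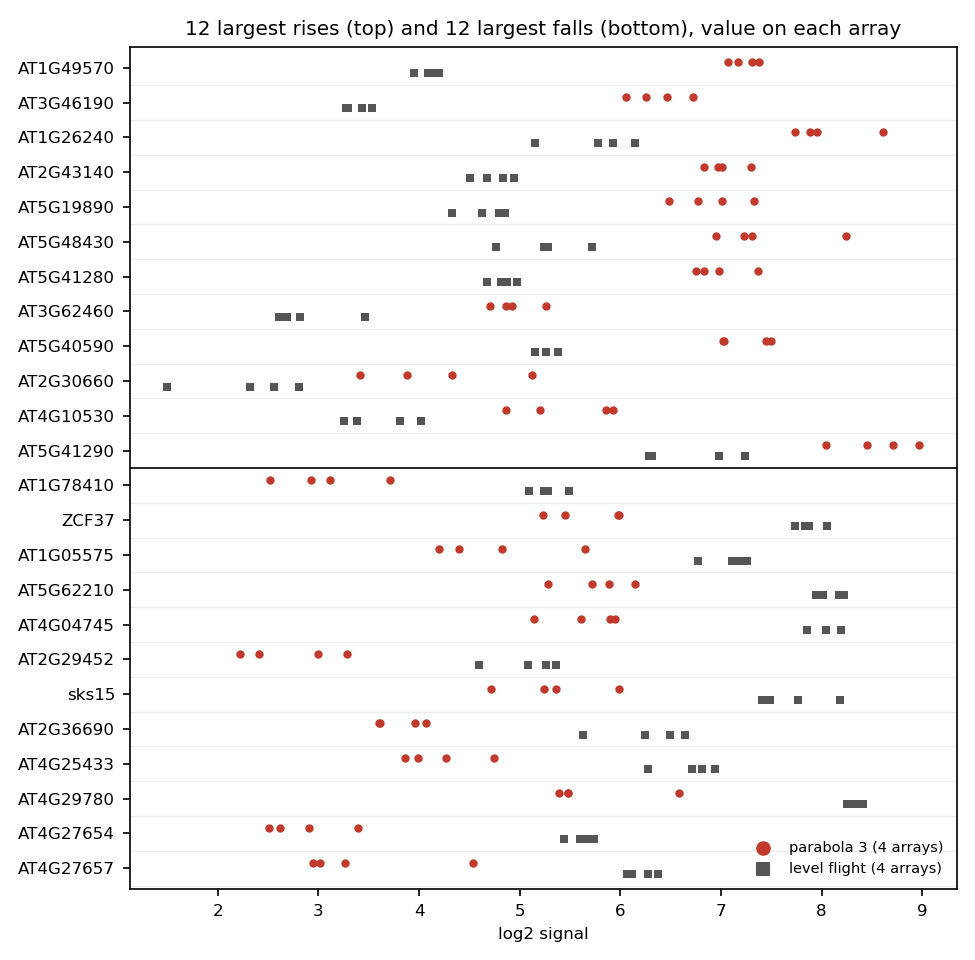
Log2 signal (x axis) on each parabola 3 array (red circles) and each level flight array (grey squares) for the 12 genes with the largest rises, above the line, and the 12 with the largest falls, below it. Only called genes whose groups did not overlap could be picked. In AT4G29780 parabola 3 replicate 3 lies at 6.58, above the other 3 arrays of its group.

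Among changed genes with high array signals the shifts were smaller. PRN, the gene for a pirin, an iron-binding protein of the cupin family, measured 10.59, 10.37, 10.41 and 10.54 after parabola 3, against 9.49, 9.48, 9.72 and 9.48 in level flight. The groups were clearly apart, and the rise was 1.91-fold (0.93 ± 0.13 SE, adjusted p = 6.31e-05). AT3G54880 rose 1.99-fold (0.99 ± 0.13 SE), the defensin-like gene LCR69 1.55-fold (0.63 ± 0.13 SE), the peroxidase gene Prx37 1.43-fold (0.52 ± 0.11 SE) and AT3G15450, related to aluminium-induced proteins, 1.38-fold (0.46 ± 0.11 SE). The rise of AT3G22240 (0.37) was no longer called without level flight replicate 1 or 2 or parabola 3 replicate 3 or 4. For AT2G01008 (0.37) this held without level flight replicate 2 or 4 or parabola 3 replicate 2 or 3. For AT3G19100 (0.32), a relative of calcium-dependent kinases, it held with the arrays of both groups alone and without level flight replicate 1 or 4 or parabola 3 replicate 2 or 4.

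KIN2, a cold- and abscisic acid-responsive gene, measured 10.54, 10.38, 10.31 and 10.28 after parabola 3, against 11.13, 11.22, 11.27 and 10.90 in level flight. It fell 1.69-fold (−0.75 ± 0.11 SE, adjusted p = 9.91e-05) with no overlap between the groups. AT4G23680, of the polyketide cyclase-like family, fell 1.79-fold (−0.84 ± 0.16 SE), AT1G71110 1.61-fold (−0.69 ± 0.14 SE), AT4G32020 1.39-fold (−0.48 ± 0.09 SE) and the DCD-domain gene AT5G42050 1.30-fold (−0.38 ± 0.09 SE). The fall of AT4G38080 (−0.44) was no longer called without level flight replicate 2 or 3 or parabola 3 replicate 3 or 4. That of AT5G20080 (−0.37), a cytochrome b5 reductase gene, was lost without level flight replicate 1, 2 or 4 or parabola 3 replicate 3. That of nad9 (−0.33), which encodes a subunit of mitochondrial complex I, was lost with the arrays of both groups alone and without level flight replicate 1, 3 or 4 or parabola 3 replicate 2 or 4.

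Parabola 3 was set against the groups on either side of it. Between parabola 3 and parabola 1, 285 genes (1.72%) differed, 126 higher and 159 lower after parabola 3. Between parabola 10 and parabola 3, 193 genes (1.17%) differed, 98 higher and 95 lower after parabola 10. Single arrays weighed heavily on both counts. Between parabola 3 and parabola 1, omission of parabola 1 replicate 1, 2 or 3 gave 134, 171 and 158 genes, and omission of parabola 3 replicate 2, 3 or 4 gave 171, 162 and 151. Between parabola 10 and parabola 3, omission of parabola 3 replicate 3 or 4 gave 104 and 127 genes, and omission of parabola 10 replicate 1 or 2 gave 114 and 89.

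Both of those tests used the same parabola 3 arrays, so they were not independent of each other. Both were passed by 48 of the 16548 genes. Of these, 14 were higher after parabola 3 than in all 3 other groups and 5 were lower, each of them also called against level flight with no overlap of arrays. These 19 genes depended on single arrays. Without parabola 3 replicate 1, 2, 3 or 4, the same rule gave 15, 12, 14 and 11 genes, of which 8, 10, 11 and 10 were among the 19.

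AT3G46190 stood furthest apart. Its level flight mean was 3.38 ± 0.12, followed by 4.36 ± 0.43 for the roots of parabola 1, 6.38 ± 0.29 for those of parabola 3 and 4.55 ± 0.28 for those of parabola 10 (SD, n = 4, 4, 4 and 3). Its parabola 3 signal exceeded that of parabola 1 by 2.02 (adjusted p = 1.69e-05), and parabola 10 minus parabola 3 was −1.82 (adjusted p = 0.000278, limma). No array of another group reached the parabola 3 range. AT5G41280 encodes a small secreted protein with cysteine-rich DUF26 repeats, related to receptor-like kinases. Its parabola 3 signal exceeded parabola 1 by 1.53 (adjusted p = 4.64e-05), and parabola 10 minus parabola 3 was −1.07 (adjusted p = 0.00459). AT3G20590, related to the disease resistance gene NDR1, measured 8.83, 8.75, 8.45 and 8.78 after parabola 3, against 7.42, 6.72, 7.26 and 7.66 in level flight. It was 1.53 above parabola 1 (adjusted p = 0.00025), and parabola 10 minus parabola 3 was −0.94 (adjusted p = 0.0252).

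AT2G30660 and AT5G09720 completed the 5 largest rises of this kind. AT2G30660 measured 5.12, 4.33, 3.41 and 3.88 after parabola 3, against 2.32, 1.50, 2.56 and 2.81 in level flight, with a wide spread inside both groups. AT5G09720, a magnesium transporter relative, measured 5.52, 5.05, 5.19 and 5.46 after parabola 3, against 3.94, 3.79, 3.12 and 4.00 in level flight, and the groups did not overlap. A nearby locus that the reference table lists as a transcribed pseudogene, AT5G09710, met the same criteria, at 1.39 above level flight, 1.32 above parabola 1 and −1.31 for parabola 10 minus parabola 3.

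Among the 5 genes lowest after parabola 3 was BAT1, which encodes an acyltransferase tied to the inactivation of brassinosteroid hormones. It measured 5.24, 5.23, 5.34 and 5.13 after parabola 3, against 6.75, 6.85, 6.96 and 6.37 in level flight (−1.50 ± 0.13 SE, adjusted p = 5.34e-07). Its mean was 5.76 after parabola 1, and parabola 3 minus parabola 1 was −0.53 (adjusted p = 0.0476). AT3G45710, of the nitrate and peptide transporter family, differed more sharply, at 7.85, 7.67, 7.79 and 7.90 after parabola 3 against 8.71, 8.67, 8.49 and 8.95 in level flight. Its mean was 8.94 after parabola 1 and 8.89 after parabola 10, so that parabola 3 alone was low (−1.14 against parabola 1, adjusted p = 0.00021, and 1.09 for parabola 10 minus parabola 3, adjusted p = 0.0012). The other 3 were AT4G00700 (−1.01), a C2-domain protein gene, AT2G17300 (−0.85) and the DUF247 gene AT3G50130 (−0.59, log2 fold changes against level flight).

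**Figure D3:**
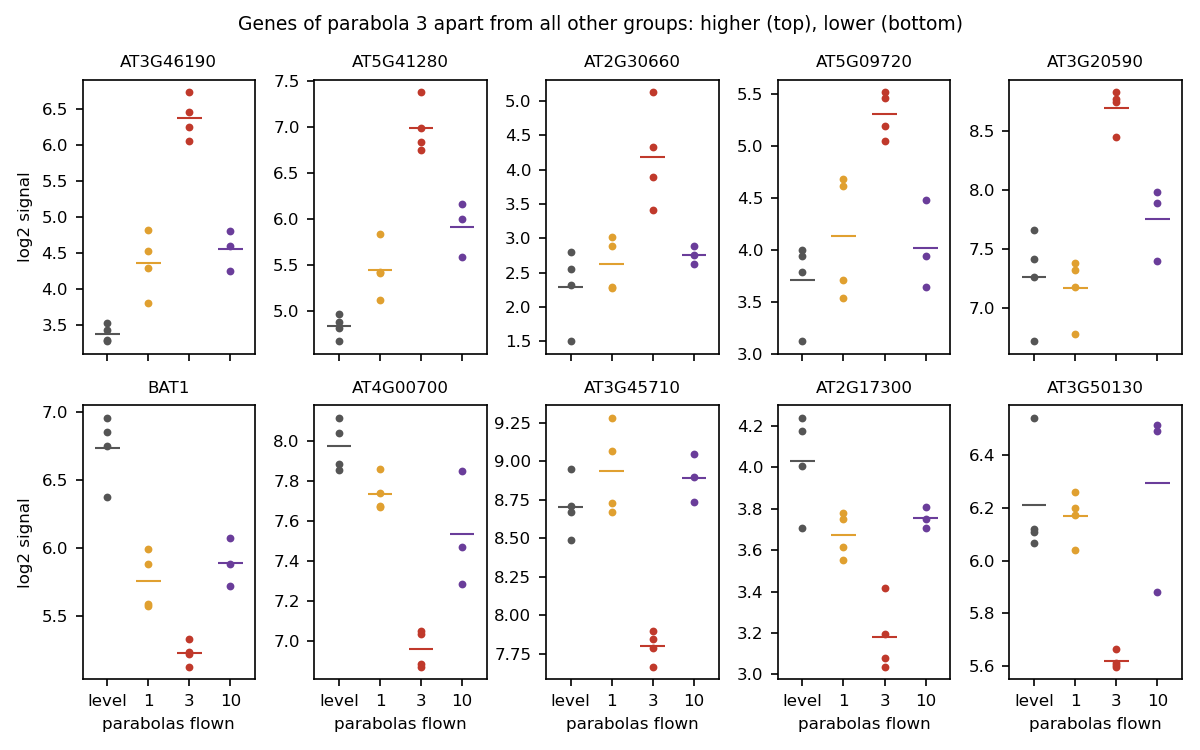
Log2 signal (y axis) on every array in level flight and after 1, 3 and 10 parabolas (x axis). The top row shows, of the 14 genes higher after parabola 3 than in all other groups, the 5 with the largest rises against level flight. The bottom row shows the 5 genes that were lower than in all other groups. Points are arrays and short lines group means, and AT3G46190 is at 6.38 on average after parabola 3 and at most 4.55 on average elsewhere.

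Of 59 gene lists, 39 had members among the tested genes. No gene matched by symbol or locus was tested for calcium-dependent kinases, NADPH oxidases, MYB factors, heat shock factors, auxin transporters, extensins, arabinogalactan proteins, jasmonate, nitrate and iron uptake, sugar starvation, VQ proteins, receptor-like cytoplasmic and wall kinases, aquaporins, cytosolic ribosomal proteins, the cell cycle, and markers of non-hair epidermis, xylem, phloem, root cap and meristem. Genes of the same kind without a matching symbol, such as the extensin-like AT1G26240, stood outside the lists. The counts below are read against the 4.48% of all genes that rose and the 6.7% that fell.

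Calcium sensors of the calmodulin-like family, which bind calcium ions and pass the signal on, mostly fell. Of 7 tested, 4 fell and 1 rose, with a median log2 fold change of −0.53. CML38 measured 4.72, 4.28, 5.17 and 3.99 after parabola 3, against 6.72, 6.58, 6.57 and 6.88 in level flight (−2.15 ± 0.20 SE, adjusted p = 1.06e-06). AT1G76640, next to it on the chromosome, fell by 2.18 on the log2 scale. At low signals, CML37 fell by 0.72 (means of 2.74 after parabola 3 and 3.46 in level flight) and CML23 by 0.53 (2.30 and 2.83). CML42 rose by 0.58 but lost its call when all rows of the table were tested and without level flight replicate 1, 2 or 3 or parabola 3 replicate 3 or 4. The 10 tested members of the calcium channel and pump list were all glutamate receptor-like channel genes, and no calcium pump was tested. None of the 10 passed the limma test, with a median of 0.03, and 2 had an unadjusted p under 0.05.

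Transcription factors and signalling regulators of the stress response were few among the tested genes. STZ, a zinc finger repressor induced by salt, cold and other stresses, measured 8.05, 7.51, 8.10 and 7.54 after parabola 3, against 9.80, 9.79, 10.00 and 9.75 in level flight (−2.04 ± 0.17 SE, adjusted p = 3.22e-07), with the groups far apart. ZAT7, the other zinc finger tested, was at 0.02, with means of 1.95 after parabola 3 and 1.93 in level flight. These lie in the dimmest bin of genes, where a change could not be judged. Of 7 WRKY genes, WRKY6 (−0.55) and WRKY22 (−0.64) fell and WRKY29 rose (0.79), and WRKY22 lost its call without level flight replicate 1 or 3 or parabola 3 replicate 2 or 4. The only tested members of the ERF and DREB list (−0.55), the NAC list (0.13) and the ethylene list (0.02) did not pass.

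Of 10 U-box ubiquitin ligases, enzymes that mark proteins for breakdown, 3 fell and none rose. PUB23, a known brake on immune signalling, measured 7.52, 6.88, 7.24 and 7.05 after parabola 3, against 8.95, 8.78, 9.10 and 9.03 in level flight (−1.79 ± 0.13 SE, adjusted p = 1.15e-07). Its close relative PUB24 fell by 1.20, and PUB19 by 0.96 at a low signal (means of 2.14 after parabola 3 and 3.11 in level flight). PUB22, another close relative, was at −0.39 (adjusted p = 0.235) with overlapping groups. None of 6 ATL RING ligases passed in limma, and 1 had an unadjusted p under 0.05.

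Redox and detoxification genes moved both ways. The glutaredoxin GRX480, which links redox state to defence transcription, measured 3.44, 2.68, 3.57 and 3.07 after parabola 3, against 5.13, 4.83, 5.57 and 5.41 in level flight (−2.04 ± 0.17 SE, adjusted p = 3.71e-07). It was the only one of 6 glutaredoxins called. Of 15 glutathione transferases, enzymes that tag reactive compounds with glutathione, 6 fell and 1 rose, with a median of −0.38. ATGSTF13 fell by 1.02 and GSTU26 by 0.65, and GSTU22 rose by 0.86. GSTU28 (−0.93) lost its call when all rows of the table were tested and without level flight replicate 2 or 4 or parabola 3 replicate 1 or 3.

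Among 55 UDP-glycosyltransferases, which attach sugars to hormones and secondary compounds, 4 rose and 6 fell, and the median was 0.00. UGT72E1, which glycosylates lignin precursors, fell by 1.24 and UGT73B3 by 1.26, whereas UGT85A4 rose by 0.57 and UGT85A2 by 0.49. Of 25 cytochrome P450 genes 4 rose and 1 fell, with a median of 0.12. The rises included a gene with means of 2.04 after parabola 3 and 1.68 in level flight. Another, with overlapping groups, had means of 2.12 and 1.78. Both lay in the dimmest bin of genes. CYP71B34 fell by 1.53 on the log2 scale and CYP71B29 rose by 0.98. AT5G47980, the acyltransferase gene of the thalianol cluster, rose by 0.90. Parabola 3 minus parabola 1 was −0.88 (adjusted p = 0.0249), and parabola 10 minus parabola 3 was 1.31 (adjusted p = 0.00332), so parabola 3 was the lowest of the 3 parabola groups.

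Class III peroxidases were the list with the most tested members, 64 of 73, of which 8 rose and 9 fell. Their median was 0.00, and the members ranged from −1.63 to 3.14. Besides the genes described above, AT4G37530 rose by 1.04. AT5G15180 fell most, at 5.63, 6.08, 6.24 and 6.17 after parabola 3 against 7.65, 7.55, 7.32 and 8.11 in level flight (−1.63 ± 0.16 SE, adjusted p = 2.31e-06). AT4G16270 fell by 0.99 and AT3G01190 by 0.83. The family thus held both large rises and large falls.

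The cytoskeleton genes called were all lower. Of 6 tubulin genes, which encode the subunits of microtubules, 4 fell, with a median of −0.42. TUB1 measured 5.14, 5.21, 5.38 and 5.58 after parabola 3, against 6.70, 6.53, 6.34 and 6.70 in level flight (−1.24 ± 0.11 SE, adjusted p = 7.2e-07), with no overlap. TUB9 fell by 0.48. TUB5 (−0.39) lost its call under repeated quantile normalization, with a replicate block, with all rows of the table and without level flight replicate 1 or 4 or parabola 3 replicate 2 or 4. TUB7 (−0.45) lost its call with all rows, with the arrays of both groups alone and without level flight replicate 1, 2 or 4 or parabola 3 replicate 2, 3 or 4. ACT11, an actin gene, measured 5.59, 5.95, 5.23 and 5.54 after parabola 3, against 6.87, 6.99, 6.86 and 7.17 in level flight (−1.40 ± 0.18 SE, adjusted p = 4.19e-05). ACT12 was at 0.29 and did not pass.

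Cell wall genes showed no single direction. Of 18 expansins, proteins that loosen walls without cutting them, EXPA4 (0.92 ± 0.15 SE) and EXPA7 (0.55 ± 0.14 SE) rose and EXPB1 fell (−1.37 ± 0.20 SE). EXPA7 lost its call without parabola 3 replicate 2. Of 10 xyloglucan-modifying XTH genes, XTH19 fell by 1.11 and XTH21 by 1.18, and none rose. Among 9 genes of the cellulose synthase superfamily, CSLA03 rose (0.98 ± 0.12 SE) and CSLC04 fell (−0.54 ± 0.09 SE). Of 4 pectin-modifying genes PMEPCRF alone passed (−0.52), and its call was lost under repeated quantile normalization, with a replicate block, with all rows of the table and without level flight or parabola 3 replicate 1, 2 or 4.

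Auxin genes called were few and all lower. GH3.17, whose enzyme joins auxin to amino acids and so inactivates it, measured 6.69, 6.57, 6.51 and 6.25 after parabola 3, against 7.66, 7.50, 7.70 and 7.65 in level flight (−1.13 ± 0.15 SE, adjusted p = 4.77e-05). Parabola 3 minus parabola 1 was −1.58 on the log2 scale (adjusted p = 1.69e-05). Of 6 GH3 genes 2 fell, and GH3.1 (−0.61), the other, had overlapping groups and lost its call with all rows, with the arrays of both groups alone and without level flight replicate 1, 3 or 4 or parabola 3 replicate 1, 2 or 4. Of 8 Aux/IAA repressors, IAA18 (−0.63) and IAA30 (−0.78) fell, but IAA30 lost its call with array weights, with all rows and without level flight replicate 2 or 3 or any 1 of the parabola 3 arrays. Among 5 SAUR genes AT4G34800 fell (−0.92), a call lost under repeated quantile normalization, with all rows and without level flight replicate 1, 2 or 4 or parabola 3 replicate 1 or 2. Both LBD factors tested failed to pass, at 0.15 and 0.20. Of the 3 tested genes of the LAZY family, which directs root and shoot angle, AT1G72490 fell by 0.78 (−0.78 ± 0.17 SE), at 5.21, 5.09, 5.33 and 5.68 after parabola 3 against 6.20, 5.93, 5.99 and 6.31 in level flight.

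Among the 6 tested genes that respond to abscisic acid, to cold or to drying, 3 fell and none rose, with a median of −0.43. Besides KIN2 these were KIN1 (−1.15 ± 0.24 SE) and COR47 (−0.53 ± 0.11 SE), which encode hydrophilic protective proteins. Among 3 hypoxia genes AT4G17260, a lactate dehydrogenase gene, fell (−0.63), although parabola 3 replicate 1 at 6.72 lay inside the level flight range. The lectins EULS3 (−0.73) and JAL22 (−0.82) fell, out of 6 lectins tested. No member passed in limma among 3 heat shock proteins, 4 vacuolar proton pump genes, 5 histones and the only clock gene (−0.25). Pumps of the plasma membrane were not tested. Only 1 of these genes, a heat shock protein, had an unadjusted p under 0.05 in limma. Its signal was low, with means of 2.09 after parabola 3 and 2.42 in level flight.

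Of 17 mitochondrion-encoded genes nad9 alone passed, with a median of −0.17 and 15 genes below 0. None of 63 chloroplast-encoded genes passed the test in limma (median 0.02), and 8 had an unadjusted p under 0.05. Cell type markers were sparse. EXPA7, a root hair marker, rose, while EXPA18, the other root hair marker tested, was at −0.22 and the endodermis marker GSO1 at 0.06. Of 8 nuclear photosynthesis genes tested as markers of green tissue, PSAN rose (0.72 ± 0.16 SE), at 4.98 to 5.81 after parabola 3 against 4.63 to 4.84 in level flight. The log2 of the summed signal of these 8 genes was 7.50 to 7.84 after parabola 3 and 7.39 to 7.66 in level flight, so the groups overlapped. Its part in the results was not tested.

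**Figure D4:**
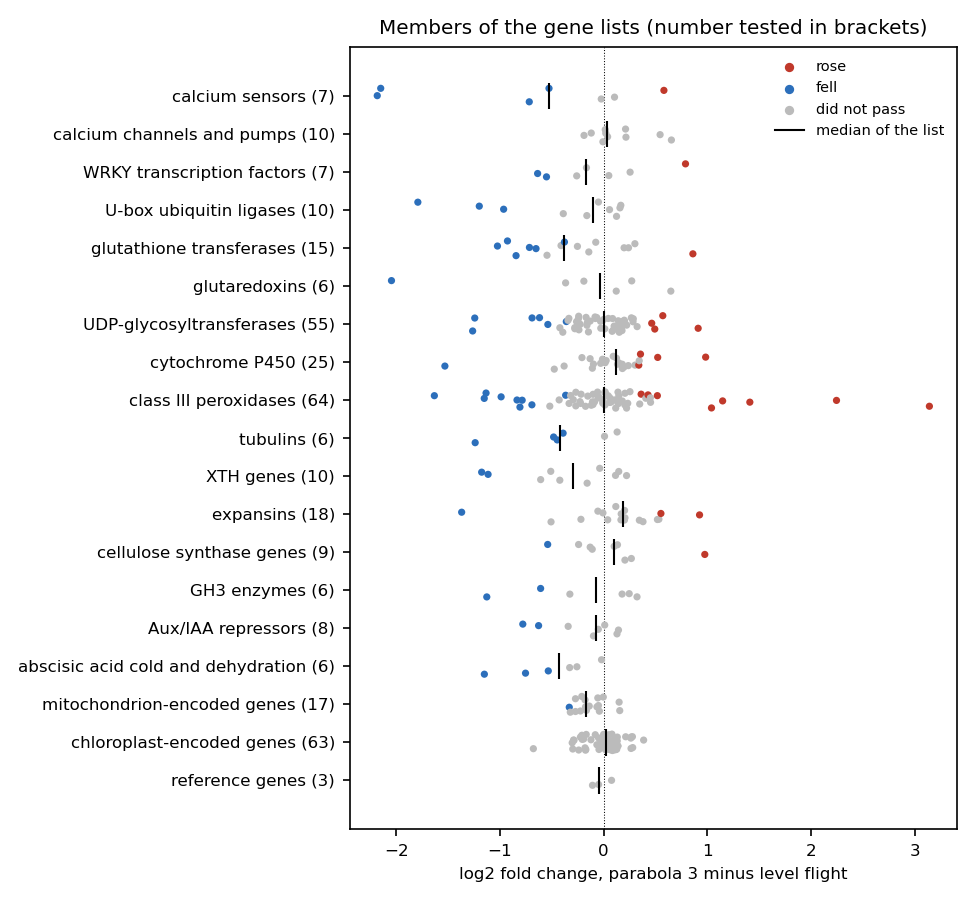
Log2 fold change (parabola 3 minus level flight, x axis) of each tested member of 19 gene lists (rows, with the number of members tested). Red points rose, blue points fell, grey points did not pass, and black ticks are list medians; class III peroxidases span −1.63 to 3.14, and no chloroplast-encoded gene passed.

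Genes that lie next to each other were examined after their values had been seen. There were 10357 pairs of adjoining genes that the reference table lists as protein-coding, with both tested. At least 1 gene was called in 2117 pairs and both in 172, where 11.2% of all tested genes were called. Of the 172 pairs, 42 rose together, 80 fell together and 50 moved in opposite directions. Whether 172 exceeds the number expected of unrelated genes was not tested. In 6 pairs both genes fell at least 2-fold, and in 3 pairs both rose at least 2-fold. AT4G27652 (−1.94), AT4G27654 (−2.75) and AT4G27657 (−2.76) formed a run of 3 falling genes, and AT5G41280 (2.15), AT5G41290 (1.84) and AT5G41300 (1.43) a run of 3 rising genes. The last 3 all encode DUF26 proteins. Whether probes for near copies read each other's transcripts was not tested.

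AT5G41300 measured 5.78, 4.86, 4.45 and 5.34 after parabola 3, against 3.41, 4.15, 3.79 and 3.35 in level flight. The groups did not overlap, although parabola 3 replicate 3 lay close to level flight replicate 2. The pair AT1G17145 (−1.95) and AT1G17147 (−2.17) joined a RING finger gene and a VQ motif gene, and AT1G17147 measured 4.39, 4.45, 5.05 and 4.25 after parabola 3 against 6.77, 6.47, 6.65 and 6.94 in level flight. AT4G04745 lay beside AT4G04750 (−1.86), a sugar transporter-like gene. The other falling pairs were AT1G76640 with CML38 and AT1G14640 (−1.33) with AT1G14642 (−1.22). AT2G30660 and AT2G30670 (1.72) formed the remaining rising pair. Whether probe sets of adjoining genes overlap was not tested.

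**Figure D5:**
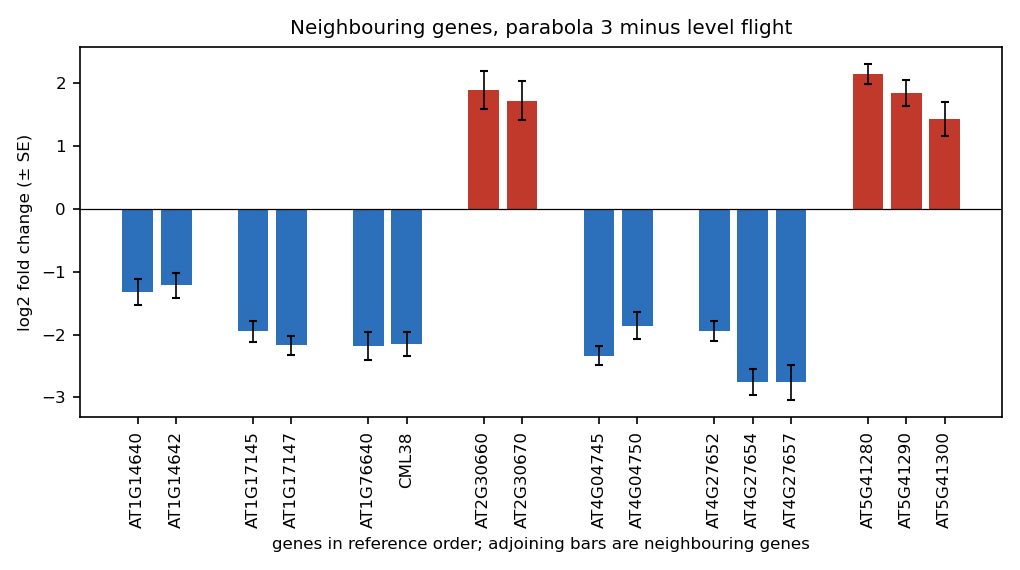
Log2 fold change (parabola 3 minus level flight, y axis, with standard errors) of adjoining genes that both changed at least 2-fold in 1 direction, in reference order (x axis). Bars that adjoin are neighbouring genes, and the lowest bars are AT4G27654 (−2.75) and AT4G27657 (−2.76).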

How the data were processed

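Total RNA of root pools was labelled as sense-strand DNA and hybridised to Affymetrix AraGene 1.0 ST arrays, 1 per pool, per the labels. Each row of the deposited table gives a probe set's log2 signal on every array. RMA, oligo, limma, R 4.0.0 and the build TAIR10 appear in the submitters' processing notes, which do not state their use. Filters were not given in the sources used here, and no scanner files were used, so background correction and slides were not examined. The table held 38408 rows, with exactly 1 gene for 16722, several for 759 and none for 20927, and 0 columns of other samples. For 148 genes with more than 1 row, the row with the highest mean was kept.

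Group means over all 15 arrays were fitted with limma 3.58.1 in R 4.3.3 (lmFit, eBayes). Tests were two-sided, adjusted by Benjamini-Hochberg over 16548 genes, and a gene with an adjusted p under 0.05 was called. Summaries used Python 3.11.15 and pandas 2.3.3, and the fit was tested on simulated data. The number of arrays limits the precision, and no detection calls were used.

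Genes were named among those called with no overlap of arrays. These were the 12 largest rises and falls and the 8 of each direction with the highest mean signal. The 5 largest in each direction that also passed against parabola 1 and parabola 10 were added. Up to 6 members of each list were taken by smallest p, whether or not they were called or overlapped. Uncalled or overlapping list members are named where a count was small, chosen after their values were seen. The members, lists and tests were chosen with earlier results of these data known, and the peroxidase list was added after seeing the data. Lists were matched by symbol or locus, leaving out a gene whose symbol has another meaning (CRK), and 14798 genes have no symbol. Names and gene order came from a reference table of TAIR10.1. That is not the build of the notes, so no coordinates are given. The roles of genes named by locus are background knowledge. Same-numbered arrays of parabola 3 and level flight did not deviate together (correlations −0.059, 0.073, 0.058 and 0.072), so no pairing was used. Alternatives were other scalings, a filter on dim genes, all rows, other variance models, array weights, a replicate block, 2 groups alone, a stricter threshold and omission of each array.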

Additional observations from a re-analysis of the deposited data

Results flagged for a closer look

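Several named genes differed between parabola 3 and another parabola group in limma's test of that difference. Against parabola 1, parabola 3 was higher in AT3G46190 (2.02), AT5G41300 (1.88), AT2G43140 (1.61), AT5G48430 (1.60), AT2G30660 (1.57), AT5G40590 (1.54), AT5G41280 (1.53), AT3G20590 (1.53), AT2G30670 (1.47), AT5G09710 (1.32), AT5G41290 (1.30), AT5G09720 (1.17), CYP71B29 (0.89), AT5G19890 (0.79), WRKY22 (0.76) and Prx37 (0.45, log2 differences, parabola 3 minus parabola 1). It was lower in GH3.17 (−1.58), AT3G45710 (−1.14), AT5G47980 (−0.88), AT4G00700 (−0.77), EULS3 (−0.71), GSTU26 (−0.59), AT3G50130 (−0.55), BAT1 (−0.53) and AT2G17300 (−0.49).

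For parabola 10 minus parabola 3 the log2 difference was negative in AT3G46190 (−1.82), AT2G30660 (−1.43), ZCF37 (−1.37), AT5G09710 (−1.31), AT1G71110 (−1.29), AT5G09720 (−1.28), AT1G14642 (−1.08), AT5G41280 (−1.07), AT1G17147 (−0.95), AT3G20590 (−0.94), PUB22 (−0.94), AT1G72490 (−0.87), PUB23 (−0.74) and CSLA03 (−0.56). It was positive in AT5G47980 (1.31), AT3G45710 (1.09), AT3G50130 (0.68), BAT1 (0.66), AT4G00700 (0.57) and AT2G17300 (0.57).

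Single arrays lay far from the other 3 of their group in 11 of 234 groups of 4 arrays (4.7%), where chance gives about 1 in 20. After parabola 3, replicate 3 was high in AT4G29780 (6.58, others 5.39 to 5.48) and CML37 (3.02, others 2.63 to 2.67), replicate 2 was low in AT3G54880 (9.82, others 10.20 to 10.23), and replicate 1 was high in IAA18 (5.03, others 4.51 to 4.59). In level flight, replicate 3 was high in PRN (9.72) and AT4G23680 (11.06) and low in AT3G15450 (9.33) and AT3G01190 (9.15). Level flight replicate 4 was high in AT3G50130 (6.54) and AT4G37530 (8.09), and replicate 1 in AT4G34270 (6.96).

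Rows annotated to no gene, which entered only the alternative that tested all rows of the table, also held changes. Of 20927 such rows, 1690 (8.08%) differed after parabola 3 from level flight when all rows of the table were tested together, 702 higher and 988 lower.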

How the results depend on the processing

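For parabola 3 against level flight, the count of 1850 genes became 3173 when all rows of the table were tested, which adds rows with several genes or none, and 923 at an adjusted p under 0.01. It was 1369 to 1918 when each array was left out in turn. The number that differed between parabola 3 and parabola 1 (285) became 160 with those arrays alone and 82 at an adjusted p under 0.01, with 134 to 384 over single omitted arrays. For parabola 10 against parabola 3 the count (193) became 118 with array weights, 69 with those arrays alone and 60 at an adjusted p under 0.01, with 89 to 247 over single omitted arrays. The omitted arrays that moved a count by more than 1.5 times are named above. The other alternatives kept these counts within 1.5 times, and those not due to fewer samples, more rows or a stricter threshold had causes that were not tested. With the replicate number as a block the counts were 1820, 278 and 181, and each replicate number is only a label. Under median centring of arrays 45.0% of calls against level flight were rises, and under repeated quantile normalization 45.9%, compared with 40.1% as reported. Of 109 named genes that were called, 87 were called under every alternative run and 93 under all but the stricter threshold. Another 16 lost the call under another alternative, and 0 reversed. Named genes were mostly picked for large changes, high signals or small p, so they need not stand for all calls. Of all 1850 calls, 1420 were kept with all rows of the table. Omission of single arrays of parabola 3 or level flight kept 1312 to 1557 of them. Of 8 named genes not called, 0 were called under any alternative. No alternative shift of all genes exceeded 0.05 on the log2 scale. Genes near the floor of the array could not be judged, as only 1.33% of the dimmest 25% of genes were called.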
